A study of Mus musculus with 6 samples.

Results

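The genes described here are those of mouse potassium, sodium and chloride channels and their accessory subunits, measured in soleus, the slow postural muscle of the calf. They were chosen by name: every gene whose symbol begins with Kcn, with Scn and a digit, or with Clcn, among the transcript clusters of the array that carry 1 gene symbol. This gave 110 genes of the 19938 measured. By role they were 15 voltage-gated potassium pore subunits (Kcna to Kcnd), 10 electrically silent modifier subunits (Kcnf, Kcng, Kcns, Kcnv), 7 subunits of the EAG, ERG and ELK channels (Kcnh), 3 of the M-current family (Kcnq) and 15 inward rectifiers (Kcnj). A further 14 were tandem-pore subunits (Kcnk), 8 calcium- or sodium-activated subunits (Kcnma, Kcnn, Kcnt, Kcnu) and 17 accessory potassium channel subunits. There were also 8 sodium pore subunits, 3 sodium beta subunits, 7 chloride channels or exchangers, and 3 noncoding RNAs antisense to potassium channel genes.

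Soleus RNA was hybridized to 6 arrays in 3 groups of 2: hindlimb suspension with electroacupuncture, hindlimb suspension alone, and control. All groups were labelled as male C57BL/6 mice aged 8 weeks. Hindlimb suspension lifts the hind paws off the ground so that soleus carries no load, and electroacupuncture passes current through inserted needles. The electroacupuncture arrays are also arrays of suspended mice, and the labels used here give neither the length of suspension, nor the needle sites, nor a group given electroacupuncture without suspension. Whether duplicate arrays stem from different mice is not stated in the labels, so every p-value measures the spread between these arrays, which may be technical.

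A muscle fibre is excited when sodium channels open and carry the action potential along its membrane and into the transverse tubules. Potassium channels repolarize it, inward rectifiers hold the resting potential, and an unusually large resting chloride conductance, carried by the channel that Clcn1 encodes, keeps the fibre from firing repeatedly. Loss of that chloride conductance causes myotonia, and inward rectifier or sodium channel defects cause periodic paralyses. Other members of these families serve nerve, smooth muscle, blood vessels or intracellular organelles, all of which a whole muscle also contains.

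The values are log2 signals, so a difference of 1 is a doubling. The signal of a gene also depends on its probes, so the signals of different genes do not rank the amounts of their RNA. Skeletal muscle markers were bright on every array, with a mean log2 signal over 5 genes of 12.70 and 12.69 with electroacupuncture, 12.73 and 12.71 with suspension alone, and 12.43 and 12.56 in controls. The difference between duplicate arrays had a standard deviation over all genes of 0.251 log2 with electroacupuncture, 0.293 with suspension alone and 0.357 in controls. Markers of other cells also differed between arrays: the mean over 7 fibroblast and tendon genes was 6.73 and 6.94 with electroacupuncture, 6.69 and 6.23 with suspension alone, and 7.92 and 7.74 in controls. The mean over 5 adipocyte genes was 6.30 and 6.17 with electroacupuncture, 5.78 and 5.51 with suspension alone, and 5.48 and 7.43 in controls, so 1 control array stood apart. Fewer cells of a type and less RNA per cell cannot be told apart in whole muscle.

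Most of the channel genes lay above the array background, which was taken from 1027 olfactory receptor genes, receptors of the nasal epithelium. The threshold was the 95th percentile of their group means, a log2 signal of 3.54 for electroacupuncture, 3.61 for suspension and 3.50 for control. Above it lay 68 of the 110 channel genes with electroacupuncture (61.8%), 63 with suspension (57.3%) and 68 in controls (61.8%). Over all 19938 genes the shares were 68.3% with electroacupuncture, 66.7% with suspension and 68.4% in controls. The median log2 signal of the channel genes was 3.95 with electroacupuncture, 3.89 with suspension and 3.81 in controls, and that of all genes was 4.58, 4.57 and 4.56 in these groups.

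Of the 110, 59 lay above background in all 3 groups, 39 in none and 12 in 1 or 2 of them. All 7 Clcn genes and all 3 sodium beta subunits (Scn2b, Scn3b and Scn4b) were above it in every group, as were 9 of the 14 tandem-pore genes. Sodium pore subunits were the opposite case: Scn2a, by the brightest of its 14 clusters, and Scn7a were above background in every group. Scn1a, Scn3a, Scn8a, Scn9a, Scn10a and Scn11a, known mostly from brain, sensory and motor neurons, were above it in none. Scn4a, the adult muscle sodium channel, was not analysed here. Among inward rectifiers Kcnj2, Kcnj3, Kcnj8, Kcnj11, Kcnj12 and Kcnj13 were above background in every group, and Kcnj1, Kcnj5, Kcnj6, Kcnj9, Kcnj15 and Kcnj16 in none. Kcnj1 is best known from kidney, and Kcnj5, Kcnj6 and Kcnj9 from G-protein-gated channels of heart and brain. Of the voltage-gated pores, Kcna1, Kcna2, Kcna3, Kcna5, Kcna6, Kcna7, Kcnc1 and Kcnc4 were above background in every group, and Kcna4, Kcnb2, Kcnc2, Kcnd2 and Kcnd3 in none. Only 4 of the 10 silent subunits (Kcng1, Kcng2, Kcng4 and Kcns3) and 7 of the 17 accessory subunits passed in every group.

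The 12 genes on both sides of the threshold lay close to it in most groups. Kcnj14 and Kcnt1 were above it only in controls, Kcnk5 in suspension and controls, and Kcnj10, Kcnmb4os1 and Kcnrg in both suspended groups but not in controls. Kcna10, Kcnab1, Kcnd1, Kcnj4, Kcnk4 and Kcnt2 were above it with electroacupuncture and in controls but not with suspension alone, where the threshold itself was highest. Kcnj14, an inward rectifier, missed the electroacupuncture threshold by 0.001 log2, and Kcnab1, a beta subunit of the Kcna channels, passed it by 0.003 log2. Kcnrg, which encodes a regulator of potassium channels, missed the control threshold by 0.004 log2. Between 16 and 18 of the 110 genes lay within 0.2 log2 of the threshold in a group, so an assignment to one side does not stand for a difference between groups. With the 99th percentile of these receptors as threshold, 34 channel genes were above it with electroacupuncture, 33 with suspension and 36 in controls.

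**Figure D1:**
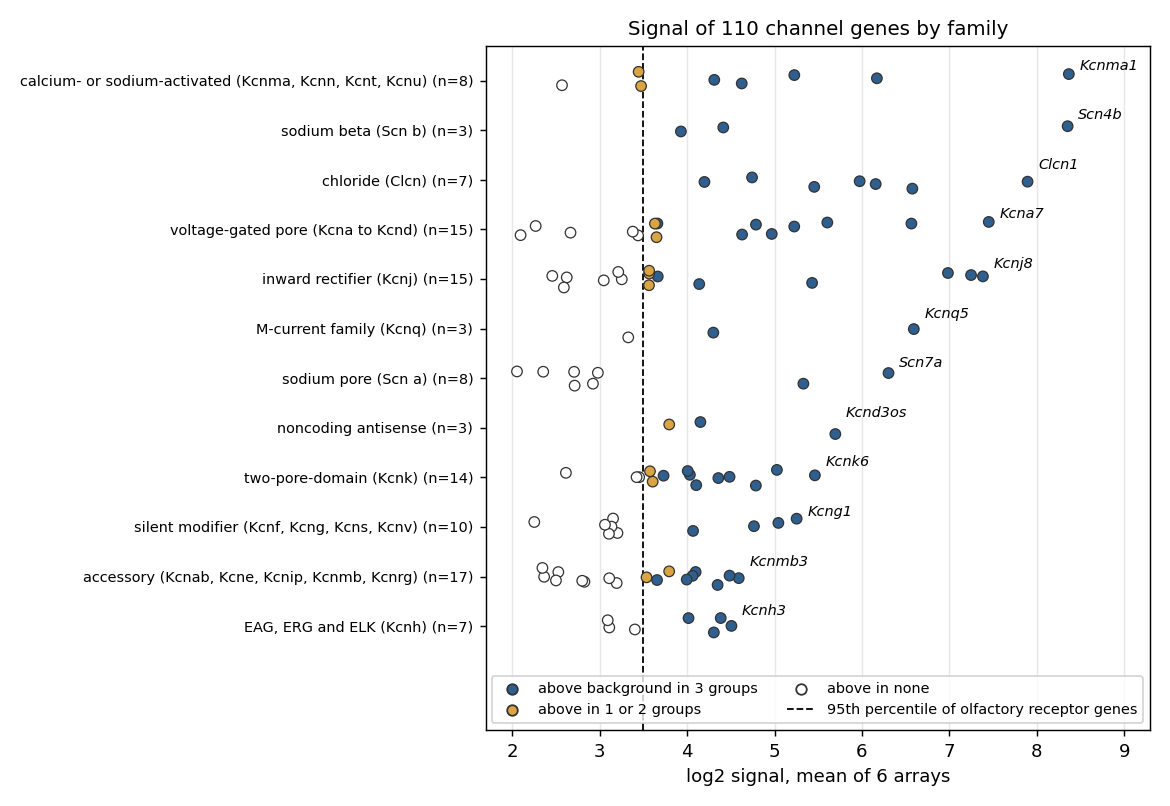
Each point is 1 of the 110 channel genes, placed by its log2 signal averaged over the 6 arrays (x axis) in the row of its family. The dashed line is the 95th percentile of olfactory receptors for the same average, fill marks in how many groups a gene was above that group's own threshold, and 1 gene is named per row. All chloride and sodium beta subunit genes lie right of the line, and most sodium pore genes left of it. Positions within a row also depend on the probes of each gene.

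Suspension against control asks what unloading does to the channel genes. Clcn1, the chloride channel of the muscle fibre membrane, rose 1.89-fold in suspended soleus, alone among the 110 channel genes in passing the threshold of adjusted p 0.05, which 1.05% of all 19938 genes passed (107 higher and 102 lower). At an unadjusted p under 0.05 stood 12 channel genes, 8 of them higher and 4 lower with suspension, which is 10.9% against 12.7% of all genes. All 12 had a mean above background, and they made up 17.4% of the 69 channel genes with such a mean, against 16.6% of all genes with such a mean. The median log2 difference over the 110 genes was 0.03, against 0.01 over all genes, and the median absolute difference was 0.14 against 0.16.

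Clcn1 had a log2 signal of 8.21 and 8.33 on the suspension arrays, against 7.25 and 7.46 on the control arrays. The groups did not overlap. The difference was 0.92 ± 0.13 log2 (SE; 95% interval 0.62 to 1.22), with an adjusted p of 0.021 by limma with Benjamini-Hochberg adjustment over all genes. The call was lost when either suspension array or either electroacupuncture array was left out (adjusted p 0.071 to 0.137), with 1 prior variance for all genes (0.052) or with the compared groups alone (0.071), while the difference stayed between 0.81 and 1.03 under every alternative run. The mean over 9 fast-fibre markers moved in the same direction, at 12.06 and 12.08 in suspended soleus, against 11.53 and 11.29 in controls. The single markers did not move together. Past the threshold, 4 of the 9 were higher (Actn3, Myh1, Myh4 and Pvalb) and 1 lower (Myh2). Myh2 had 10.31 and 10.37 in suspended soleus, against 12.21 and 12.47 in controls (adjusted p 0.021 by limma). The slow-fibre mean over 8 genes was 11.06 and 11.13 in suspended soleus, against 11.43 and 11.80 in controls. None of the 8 was past the threshold. The part of either marker list in the Clcn1 difference was not tested.

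The other 6 Clcn genes did not pass the test. Clcn2 encodes a plasma membrane channel, Clcn3, Clcn4 and Clcn5 encode exchangers of endosomes, and Clcn6 and Clcn7 exchangers of late endosomes and lysosomes. Their suspension minus control differences ran from -0.17 for Clcn4 to 0.26 for Clcn3, with adjusted p of 0.60 or more. Clcn3 had 6.05 and 6.45 in suspended soleus, against 6.06 and 5.93 in controls, so these overlapped. In Clcn5 the control arrays themselves lay apart, at 4.69 and 3.95, around the suspension values of 4.28 and 4.01.

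The 250 bases upstream of the annotated starts of Clcn1 and of Kcnq5, an M-type potassium channel subunit, are shown because these were the channel genes past the threshold in any comparison. They are from RefSeq on GRCm38.p6, read in the direction of the gene. The Clcn1 window is chr6:42286435-42286684 on the plus strand. Kcnq5, which has 2 listed starts, has the windows chr1:21962651-21962900 and chr1:21961943-21962192 on the minus strand. Capitals mark matches, on either strand, of the consensus of MEF2, a muscle transcription factor, and of CANNTG, the E-box letters that myogenic factors such as MyoD bind.
Clcn1: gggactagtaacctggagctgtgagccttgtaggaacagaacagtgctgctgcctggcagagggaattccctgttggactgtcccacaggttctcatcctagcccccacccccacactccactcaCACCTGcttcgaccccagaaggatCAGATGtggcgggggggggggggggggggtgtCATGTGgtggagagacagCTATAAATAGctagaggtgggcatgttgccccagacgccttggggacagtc
Kcnq5, first window: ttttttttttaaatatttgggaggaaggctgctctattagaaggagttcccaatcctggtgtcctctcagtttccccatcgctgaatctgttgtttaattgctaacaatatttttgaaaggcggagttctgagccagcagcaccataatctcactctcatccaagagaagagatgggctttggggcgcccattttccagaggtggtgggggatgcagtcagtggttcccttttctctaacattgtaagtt
Kcnq5, second window: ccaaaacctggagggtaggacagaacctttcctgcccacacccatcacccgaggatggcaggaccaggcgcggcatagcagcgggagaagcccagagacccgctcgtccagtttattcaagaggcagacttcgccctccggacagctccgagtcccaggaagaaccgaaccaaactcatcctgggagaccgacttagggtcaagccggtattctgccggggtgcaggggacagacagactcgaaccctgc

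In Clcn1 the MEF2 consensus matched once, from position -51 to -42 relative to the start, over letters that also hold TATAAA, and CANNTG matched 3 times. Neither Kcnq5 window held a match of these motifs or of TATAAA. The MEF2 consensus was in 2.92% of 32851 mouse promoters of the same length and in 4 of the 117 promoters listed for 86 of the channel genes (Clcn1, Clcn3, Kcnj9 and Kcnj16). CANNTG was in 66.2% of all and in 80 of the 117, and TATAAA in 12.4% of all and in 6 of the 117. A match is a run of letters and not a measured binding site.

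Of the voltage-gated potassium pores, Kcnc4 and Kcnc1, which encode related fast channels of the Shaw family (Kv3), differed in opposite directions without passing the test. Kcnc4 had 7.11 and 6.71 with suspension, against 6.16 and 5.98 in controls. Its difference was 0.85 ± 0.16 (adjusted p 0.056 by limma). Kcnc1 had 5.21 and 5.57 with suspension, against 6.17 and 5.95 in controls, a difference of -0.67 ± 0.17 (adjusted p 0.114). In both genes the suspension arrays lay clear of the control arrays, above them for Kcnc4 and below them for Kcnc1. Kcnc4 passed the threshold under 4 of 18 alternatives: the robust prior, the filter on background, repeated quantile normalization and cyclic loess. Of the other 13 voltage-gated pore genes, none had an unadjusted p under 0.05. Kcna7, which encodes a Shaker channel found in muscle, had 7.60 and 7.53 with suspension, against 7.67 and 7.54 in controls.

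Kcnq5, a subunit of M-type channels that also occurs in muscle, had 6.84 and 6.71 with suspension, against 6.04 and 6.23 in controls. The difference of 0.64 ± 0.14 missed the threshold (adjusted p 0.076). Kcnq1, known from the repolarization of heart muscle, differed by -0.06 ± 0.16, and Kcnq3, below background in every group, by 0.32 ± 0.18. The 7 Kcnh genes differed by between -0.35 (Kcnh1) and 0.26 (Kcnh5), none with an unadjusted p under 0.05. Kcnh2, the ERG channel of the heart action potential, had 4.36 and 4.196 with suspension, against 4.34 and 4.44 in controls. Kcng4, a silent subunit that works only together with other pores, had 4.67 and 4.38 with suspension, against 5.25 and 5.07 in controls, a difference of -0.63 ± 0.16 (adjusted p 0.124). Its groups did not overlap either. Clcn1, Kcnc4, Kcnc1, Kcnq5 and Kcng4 were all among the genes with the smallest p, so separate arrays add no support to their tests.

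Among calcium-activated channels, Kcnn3, whose product SK3 is known to appear in denervated muscle, had 6.45 and 6.63 in suspended soleus, against 6.00 and 5.82 in controls. The difference was 0.63 ± 0.16 (adjusted p 0.111). The related Kcnn1 differed by 0.24 ± 0.15, Kcnn2 by 0.07 ± 0.16 and Kcnn4 by 0.05 ± 0.18. Kcnma1, the pore of the large-conductance channel, had 8.33 and 8.46 with suspension, against 8.31 and 8.28 in controls, with a difference of 0.10 ± 0.12 and an interval that allows at most 0.38. Nerve and Schwann cell markers, none of which passed the test, had means over 7 genes of 4.85 and 4.78 with suspension and 4.93 and 4.92 in controls. Nefl, Nefm and S100b of that list were below background in every group.

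The inward rectifiers Kcnj2, Kcnj8, Kcnj11 and Kcnj12, known from muscle fibres or their vessels, had higher means with suspension, none of them past the threshold. Kcnj2, which sets the resting potential, had 7.46 and 7.42 with suspension, against 7.03 and 7.25 in controls, a difference of 0.30 ± 0.13 (adjusted p 0.388). Kcnj12, its close relative, had 5.93 and 5.30 with suspension, against 5.30 and 4.77 in controls, a difference of 0.58 ± 0.26 (adjusted p 0.390), and its groups overlapped. Kcnj8 and Kcnj11, the alternative pores of ATP-sensitive channels, differed by 0.28 ± 0.12 and 0.27 ± 0.15. Over all 15 Kcnj genes the median difference was 0.14, with 10 above 0, where 10196 of all 19938 genes were above 0. Of the 15, 6 lay below background in every group. Genes of a family are not replicates, so this count tests nothing. A partner of Kcnj8 and Kcnj11, the sulfonylurea receptor gene Abcc9, had 9.24 and 9.28 with suspension, against 8.49 and 8.69 in controls, a difference of 0.67 ± 0.13 (adjusted p 0.059). The other sulfonylurea receptor gene, Abcc8, differed by -0.03 ± 0.18. Electroacupuncture minus suspension was -0.34 ± 0.13 for Abcc9 and 0.18 ± 0.18 for Abcc8, neither past the threshold.

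Tandem-pore channels carry background potassium current. Their median difference was -0.10, with 3 of 14 above 0, where 10196 of all 19938 genes were above 0. Of the 14, 3 lay below background in every group. Genes of a family are not replicates, so this count tests nothing. Kcnk2, a mechanically gated channel, had 3.88 and 4.32 with suspension, against 4.66 and 4.65 in controls. Its difference was -0.56 ± 0.21 (adjusted p 0.30). Kcnk3 and Kcnk6 differed by 0.06 ± 0.14 and -0.29 ± 0.23.

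Of the sodium channel genes none passed the test. Scn4b, a beta subunit known for resurgent sodium current, had 8.59 and 8.49 with suspension, against 8.33 and 8.23 in controls, a difference of 0.26 ± 0.13. Scn2a, a brain sodium channel, had 5.44 and 5.01 with suspension, against 5.87 and 5.57 in controls, a difference of -0.49 ± 0.19 (adjusted p 0.313). Scn2a is covered by 14 clusters whose means ran between 2.16 and 5.33, and the brightest was used. Over the 14 clusters the suspension minus control difference ran from -0.52 to 0.60, with 6 above 0, and averaged -0.08. Scn7a, a sodium-sensing relative known from Schwann cells, had 7.14 and 6.12 with suspension, against 5.28 and 6.43 in controls. Its duplicates differed by 1.02 log2 with suspension and 1.15 log2 in controls, a control gap larger than that of any other channel gene, so its difference of 0.78 ± 0.39 cannot be told from the spread (adjusted p 0.46). Wide control gaps were also seen in Kcnj10, an inward rectifier of glia, with 3.67 and 3.60 with suspension, against 4.02 and 2.95 in controls. Kcnk7, a tandem-pore subunit, had 3.87 and 3.90 with suspension, against 4.52 and 3.69 in controls.

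Accessory and noncoding genes near the background also did not pass. Kcnrg had 4.41 and 3.88 with suspension, against 3.50 on each control array, a difference of 0.65 ± 0.20 (adjusted p 0.201). The noncoding Kcnmb4os1 had 4.005 and 3.87 with suspension, against 3.34 and 3.57 in controls, a difference of 0.48 ± 0.18 (adjusted p 0.296). The gene on the opposite strand, Kcnmb4, an accessory subunit of the large-conductance channel, differed by 0.04 ± 0.17. The other accessory subunits had differences between -0.30 (Kcnmb3) and 0.19 (Kcnip4).

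**Figure D2:**
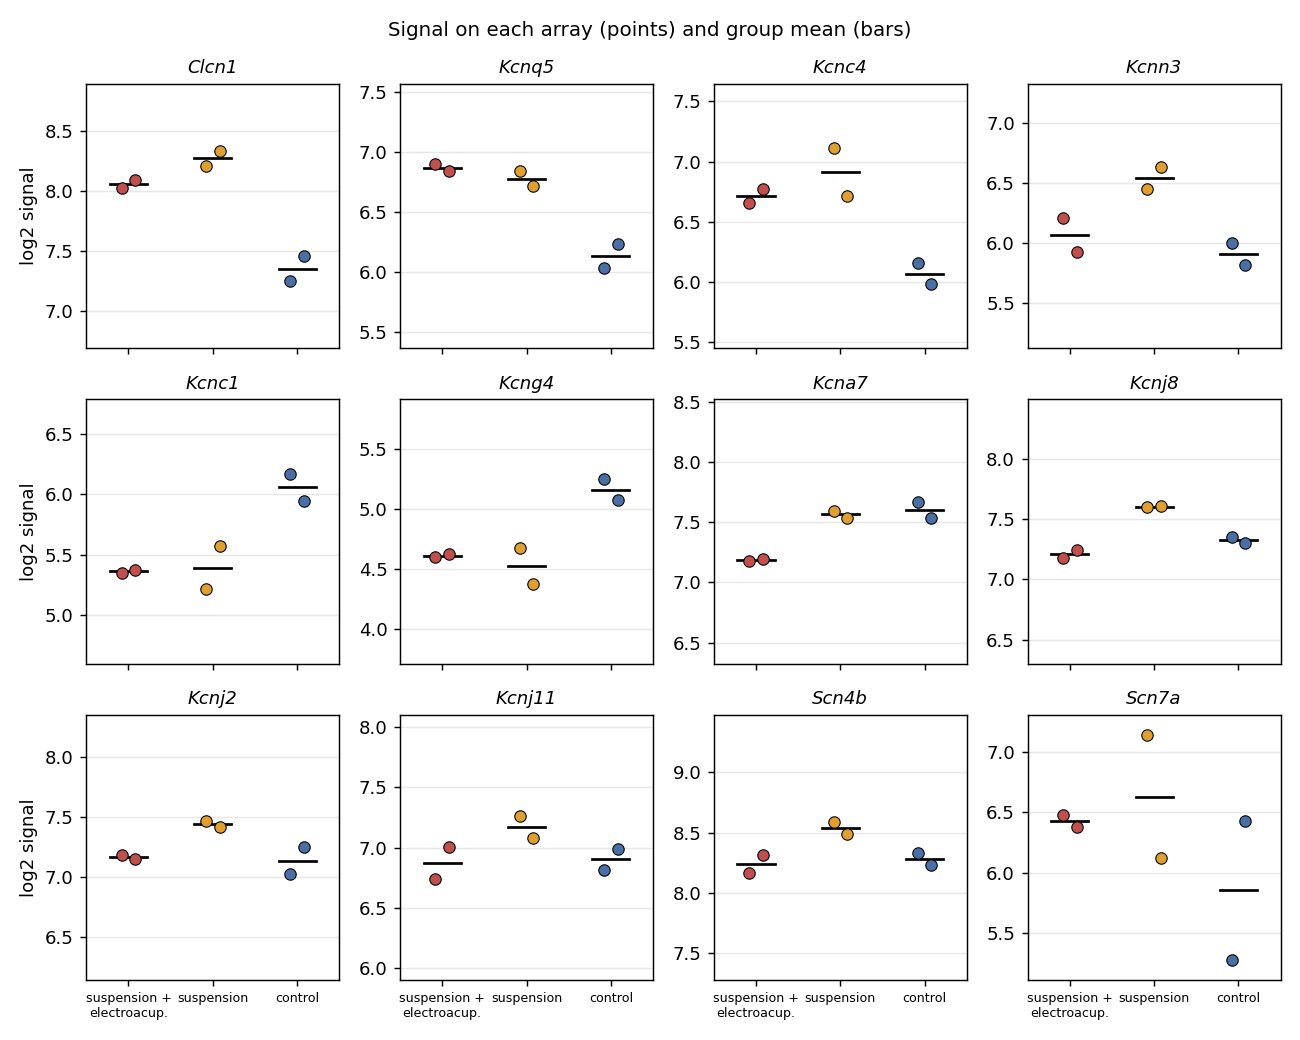
Each point is the log2 signal (y axis) of 1 gene on 1 array, and each bar is the mean of the 2 arrays of a group, for 12 channel genes, with all panels spanning the same log2 range. Clcn1 and Kcnq5 are lowest, and Kcnc1 and Kcng4 highest, in both control arrays, and Scn7a shows duplicates over 1 log2 apart.

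Electroacupuncture with suspension against suspension alone asks whether the treatment alters the channel genes of unloaded muscle. By limma none of the 110 channel genes passed the adjusted threshold, and none of the 19938 genes did (0%). At an unadjusted p under 0.05 were 6 channel genes, 1 higher and 5 lower with electroacupuncture, or 5.45% against 3.07% of all genes. All 6 had a mean above background, so that they made 8.70% of the 69, against 3.28% of all genes with such a mean. No channel gene differed by over 1.5-fold, and the median log2 difference was -0.01 both for the members and for all genes. With a median standard error of 0.18 log2, small differences were not detectable. This comparison and the previous one share the suspension arrays, so a chance high value there raises one difference and lowers the other.

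The 5 lower genes were Kcnj8, Kcnn3, Kcna7, Kcnn1 and Scn4b. Kcnj8, the pore of the ATP-sensitive channel of vessels, had 7.18 and 7.25 with electroacupuncture, against 7.60 and 7.61 with suspension alone. The difference was -0.39 ± 0.12, with an unadjusted p of 0.0109 by limma. Controls had 7.35 and 7.31, between the other groups. The mean over 6 endothelial markers was also lower, at 7.02 and 6.93 with electroacupuncture, against 7.35 and 7.22 with suspension alone. None of the 6 was past the threshold against suspension. Their control means of 7.28 and 7.46 overlapped those of suspension alone, unlike Kcnj8. Smooth muscle markers overlapped, with a mean over 5 genes of 6.17 and 6.07 with electroacupuncture and 6.25 and 6.04 with suspension alone. The part of either marker list in the Kcnj8 difference was not tested.

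Kcnn3 had 6.21 and 5.93 with electroacupuncture, against 6.45 and 6.63 with suspension alone, a difference of -0.47 ± 0.16 (unadjusted p 0.0145 by limma). The electroacupuncture arrays overlapped the control arrays. Kcnn1, another SK channel, had 4.92 and 5.20 with electroacupuncture, against 5.45 and 5.41 with suspension alone, a difference of -0.37 ± 0.15. Scn4b had 8.17 and 8.32 with electroacupuncture, against 8.59 and 8.49 with suspension alone, a difference of -0.29 ± 0.13. In Kcnn1 and Scn4b too, the electroacupuncture arrays overlapped the controls.

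Kcna7 differed in another way. It had 7.18 and 7.19 with electroacupuncture, against 7.60 and 7.53 with suspension alone and 7.67 and 7.54 in controls, so only the electroacupuncture arrays stood low. The difference was -0.38 ± 0.13 against suspension (unadjusted p 0.0144 by limma). The 1 higher gene was Kcnj13, an inward rectifier best known from epithelia, with 4.38 and 4.37 with electroacupuncture, against 3.75 and 4.13 with suspension alone, a difference of 0.44 ± 0.18. It was also above its control values of 4.01 and 4.19.

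Other genes described above for suspension against control had the following values here. Clcn1 had 8.02 and 8.09 with electroacupuncture, against 8.21 and 8.33 with suspension alone, a difference of -0.21 ± 0.13 (95% interval -0.52 to 0.09, adjusted p 1.00). Kcnq5 had 6.90 and 6.84 with electroacupuncture, against 6.84 and 6.71 with suspension alone, a difference of 0.09 ± 0.14 (95% interval -0.22 to 0.40). Kcnc4 gave -0.20 ± 0.16 with overlapping arrays, and Kcnc1 gave -0.03 ± 0.17. Kcng4 gave 0.09 ± 0.16, Kcnj12 0.03 ± 0.26, Kcnk2 0.21 ± 0.21 and Scn7a -0.20 ± 0.39, all with overlapping arrays. Kcnrg gave -0.40 ± 0.20, with both electroacupuncture arrays below both suspension arrays. Kcnj2 and Kcnj11 gave -0.27 ± 0.13 and -0.30 ± 0.15, each with both electroacupuncture arrays below both suspension arrays. By family, the tandem-pore genes had a median difference of 0.05 with 11 of 14 above 0, and the Clcn genes one of -0.13 with 1 of 7 above 0. Above 0 were also 1 of 8 sodium pore genes, 3 of 3 antisense RNAs and 9656 of all 19938 genes. Among the 14 tandem-pore genes, 3 lay below background in every group. Genes of a family are not replicates, so these counts test nothing.

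Electroacupuncture with suspension against control sets treated, unloaded muscle against the baseline. Kcnq5 rose 1.66-fold and was the only channel gene past the threshold, which 1.03% of all genes passed (89 higher and 117 lower). At an unadjusted p under 0.05 were 12 channel genes, 5 higher and 7 lower, or 10.9% against 12.8% of all genes, and 17.4% of the 69 with a mean above background against 16.3% of all such genes. The control arrays enter this comparison and the suspension one, and the electroacupuncture arrays enter the previous one, so the 3 comparisons are not independent.

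Kcnq5 had 6.90 and 6.84 with electroacupuncture, against 6.04 and 6.23 in controls, and the groups did not overlap. The difference was 0.73 ± 0.14 (SE), with an adjusted p of 0.047 by limma, close to the threshold. The call was lost without either electroacupuncture array, either suspension array or control array 1 (adjusted p 0.081 to 0.390) and held without control array 2 (adjusted p 0.041). It passed under 6 of 17 alternatives. Clcn1 had 8.02 and 8.09 with electroacupuncture, against 7.25 and 7.46 in controls, a difference of 0.70 ± 0.13 that just missed the threshold (adjusted p 0.051). That Clcn1 passed against control only with suspension alone, and Kcnq5 only with electroacupuncture, does not show a difference between those groups: the tests of electroacupuncture against suspension above were past the threshold for neither gene.

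Kcnc4 and Kcnc1 again lay on opposite sides of the controls, at 0.65 ± 0.16 (adjusted p 0.128) and -0.70 ± 0.17 (adjusted p 0.107). Kcng4 had 4.60 and 4.62 with electroacupuncture, against 5.25 and 5.07 in controls, a difference of -0.55 ± 0.16 (adjusted p 0.190). Scn2a had 5.14 and 4.96 with electroacupuncture, against 5.87 and 5.57 in controls, a difference of -0.67 ± 0.19 (adjusted p 0.163), but -0.17 when its 14 clusters were averaged. Kcna7 differed by -0.42 ± 0.13 (adjusted p 0.192) and Clcn4, an endosomal exchanger, by -0.41 ± 0.16 (adjusted p 0.323). On the higher side, Kcnmb4os1 had 3.85 and 4.13 with electroacupuncture, against 3.34 and 3.57 in controls. Its difference was 0.54 ± 0.18 (adjusted p 0.241 by limma), and that of Kcnj12 was 0.61 ± 0.26 (adjusted p 0.358 by limma). Kcnmb1, the smooth muscle partner of Kcnma1, had 3.94 and 3.86 with electroacupuncture, against 4.34 and 4.27 in controls, a difference of -0.40 ± 0.16 (adjusted p 0.331). Smooth muscle markers, with a mean over 5 genes of 6.17 and 6.07 with electroacupuncture against 6.25 and 6.50 in controls and none of the 5 past the threshold, also lay lower, and their part was not tested.

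**Figure D3:**
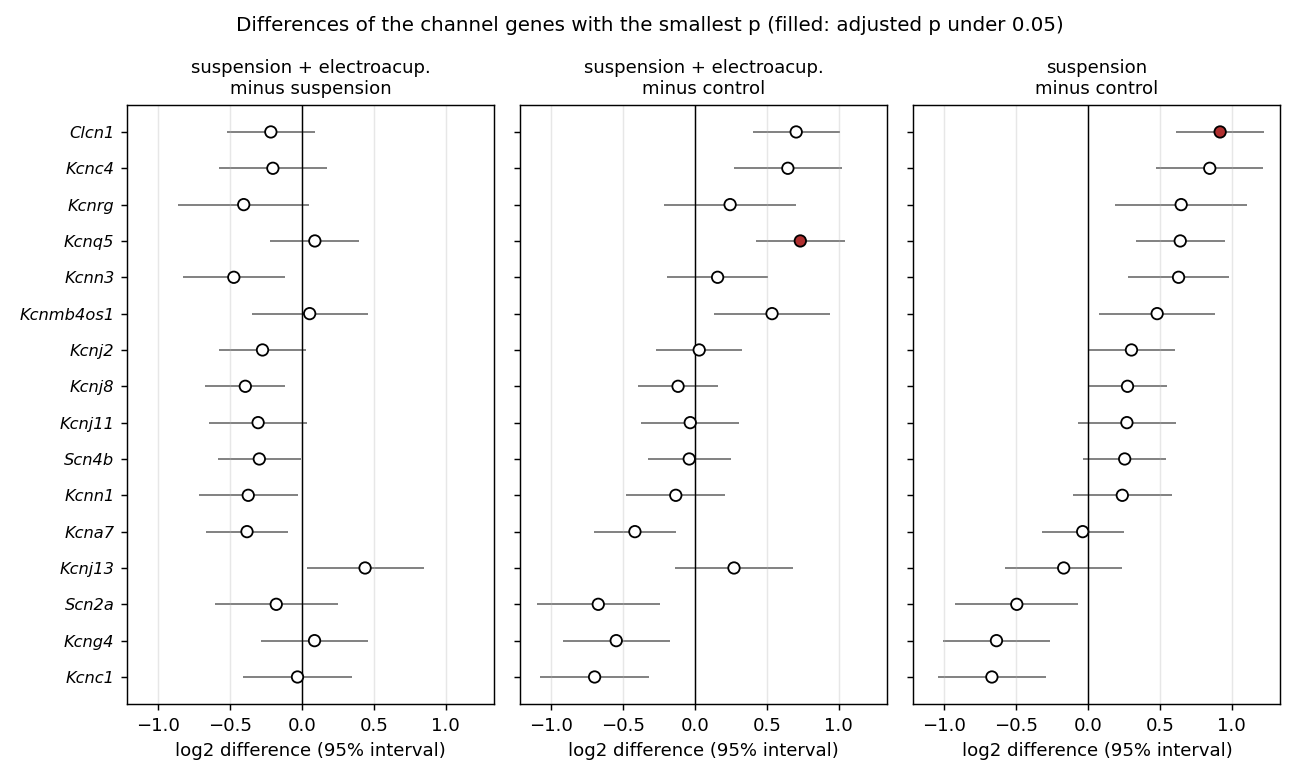
Log2 differences (points) with 95% intervals (lines) from limma for 16 channel genes in the 3 comparisons, electroacupuncture minus suspension, electroacupuncture minus control, and suspension minus control. Filled points have an adjusted p under 0.05: Kcnq5 in the second panel and Clcn1 in the third.

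Genes outside the channel families that set ion gradients, build channel complexes or anchor them were counted from a list of 50, of which 42 were measured. With suspension, against control, 2 of the 42 rose and 1 fell, where 1.05% of all genes passed. With electroacupuncture, against suspension, none passed (0% of all genes). With electroacupuncture, against control, 1 rose and 2 fell, where 1.03% of all genes passed. Their median differences were 0.04, -0.02 and 0.03. Lrrc38, a gamma subunit of the channel that Kcnma1 encodes, had 6.68 and 6.84 with suspension, against 5.98 and 5.57 in controls, a difference of 0.99 ± 0.16 (adjusted p 0.032 by limma). The pore gene Kcnma1 itself differed by 0.10. Electroacupuncture arrays had 6.25 and 6.21 for Lrrc38, with a difference from control of 0.45 ± 0.16 (adjusted p 0.283).

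Slc12a2, the sodium, potassium and chloride cotransporter that raises chloride inside the cell, was higher in both suspended groups. It had 8.10 and 8.01 with electroacupuncture and 8.15 and 8.26 with suspension, against 7.42 and 7.06 in controls. The differences from control were 0.82 ± 0.15 (adjusted p 0.044) and 0.97 ± 0.15 (adjusted p 0.025). Atp1b4, a muscle protein related to the beta subunits of the sodium pump, had 4.40 and 4.30 with electroacupuncture and 4.73 and 4.54 with suspension, against 5.84 and 5.83 in controls. It fell by 1.48 ± 0.15 (adjusted p 0.0076) and by 1.20 ± 0.15 (adjusted p 0.013). Lrrc52, a gamma subunit of large-conductance channels, fell by 2.38 ± 0.43 with electroacupuncture (adjusted p 0.043), at 6.40 and 5.05 against 7.56 and 8.66 in controls. With suspension alone Lrrc52 had 6.12 and 5.91, a difference from control of -2.09 ± 0.43 that missed the threshold (adjusted p 0.072 by limma). Electroacupuncture and suspension arrays overlapped, with a difference of -0.29 ± 0.43. Its duplicates lay over 1 log2 apart with electroacupuncture and in controls. Atp1b2, a sodium pump beta subunit, had 7.57 and 7.35 with suspension, against 6.78 and 6.71 in controls, a difference of 0.71 ± 0.14 that missed the threshold (adjusted p 0.056).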

How the data were processed

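Soleus RNA of 6 arrays (Affymetrix Mouse Gene 1.0 ST, biotin labelled) was analysed. The authors deposited log2 signals of 35556 transcript clusters, made by RMA in Affymetrix Expression Console per the submitters' processing notes, and these were used as they stood. The genome build is not given in the sources used here. Clusters with 1 symbol in the platform annotation (21789) were kept, while 1621 with several genes and 12146 with none were left out. The cluster with the highest mean stood for its gene, which gave 19938 genes. The 110 channel genes came from 127 clusters, and 5 of the genes had more than 1. Left out were 3 clusters that each name several sodium pore genes. All 110 matched a RefSeq gene ID, which changed 0 symbols.

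All 6 arrays entered 1 linear model in limma 3.58.1 under R 4.3.3 (variance trend, 3 residual and 5.88 prior degrees of freedom), with two-sided p-values adjusted by Benjamini-Hochberg over all genes and a threshold of 0.05. Errors are standard errors and intervals are 95%. The number of arrays limits the precision. The alternatives changed the variance prior, array weights, normalization, clusters, groups, a replicate block and the arrays used. In the check of pairing, the differences between duplicates correlated between groups at -0.016, 0.017 and -0.162, so replicate numbers were not taken as pairs.

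The genes named were those past the threshold, the 8 brightest, the 4 above background with the largest gaps between duplicates, and a set of 45 (39 measured). Also named were, per comparison, the 8 with the smallest p among channel genes above background in either compared group. Kcnk2, Kcnh2, Kcnn4, Kcnmb4 and genes named by their side of the background or as ends of a range were picked once their values had been seen. The members, lists and rules were chosen with earlier results of these data known.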

Additional observations from a re-analysis of the deposited data

How the results depend on the processing

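For suspension minus control, 1 channel gene was called. The count was 0 with one prior variance and with the compared groups alone, 2 with the robust prior, with genes above background only and with cyclic loess, and 3 with repeated quantile normalization and at an adjusted p under 0.10. With each array left out in turn it ran between 0 and 1. For electroacupuncture minus control the count was 1. It was 0 with one prior variance, array weights, median centring, every cluster by itself, the compared groups alone and the replicate block, and 2 with the robust prior, genes above background only, repeated quantile normalization, cyclic loess and an adjusted p under 0.10. With each array left out it ran between 0 and 2. For electroacupuncture minus suspension it was 0 under every alternative run. With the replicate block, 1 channel gene was called for suspension minus control, 0 for electroacupuncture minus suspension and 0 for electroacupuncture minus control, where Kcnq5 had an adjusted p of 0.105. A crossed pairing of the suspension and control duplicates, added after seeing the data because their differences correlated at -0.162, called 1. The cause of these changes was not tested, beyond the fewer arrays of some settings.

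Clcn1 with suspension passed under 12 of 18 alternatives (adjusted p 0.0136 to 0.137) and Kcnq5 with electroacupuncture, against control, under 6 of 17 (0.025 to 0.390). None of the differences with the smallest p in each comparison, which were followed through the alternatives, changed sign. Smaller differences were not followed. The count above background moved with the 99th percentile, to 34 with electroacupuncture, 33 with suspension and 36 in controls. With arrays left out it ran from 60 to 68, from 60 to 64 and from 62 to 74. A scaling moved the median of all genes by at most 0.03 log2. Signals near the background and 2 arrays a group limit what can be seen.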
